A study of Mus musculus with 18 samples.

Results

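The genes described here are the secreted and membrane components of the Wnt pathway in mouse skin: the Wnt ligands, the R-spondin agonists (Rspo), the Frizzled receptors (Fzd) with the co-receptors Lrp5 and Lrp6, the secreted inhibitors of the Sfrp and Dkk families with Wif1 and Frzb, and the feedback regulators Axin2, Rnf43 and Znrf3. They were chosen by name. A probe set is a group of short probes read together as 1 signal. All probe sets were taken whose symbol began with Wnt, Fzd, Sfrp, Dkk or Rspo followed by a number. Those of the single genes just listed were added. This gave 92 of the 45037 probe sets of the array, for 49 of the 18193 genes named by a single symbol: 32 probe sets for 19 Wnt ligands, 6 for 4 R-spondins, 29 for 12 receptors, 18 for 10 secreted inhibitors and 5 for the 3 feedback regulators. The other 2 belonged to Fzd10os, a transcript from the opposite strand at Fzd10, which met the rule by its letters.

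The samples were epidermis, dermis or whole skin of K14NICDER transgenic or wild-type mice, which makes 6 groups, and each group had 3 arrays, 18 in all. All were females on a C57Bl6xCBA F1 background, 7 weeks old at the start, and both genotypes received 4OHT (4-hydroxytamoxifen) for 14 days, so that no group was without the drug. In the transgenic mice the keratin 14 promoter, active in the basal cells of epidermis and hair follicle, drives a Notch intracellular domain whose activity depends on 4OHT through a fused hormone-binding domain. The study set transgenic epidermis and dermis against those of wild-type controls. Nothing in the labels says that the 3 samples of a group came from separate animals, or that the tissues came from the same ones, so p-values measure only the spread between these samples.

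Wnt ligands are secreted lipid-modified proteins that bind a Frizzled receptor and, in the branch that stabilises beta-catenin, the co-receptors Lrp5 and Lrp6. R-spondins bind Lgr receptors and remove the ubiquitin ligases Rnf43 and Znrf3, which otherwise clear Frizzled from the cell surface. Sfrp proteins, Frzb and Wif1 bind the ligands, and Dkk1, Dkk2 and Dkk4 bind the co-receptors, while Axin2 is a target of the pathway that restrains it. In skin the pathway is known for the induction and growth of hair follicles and for signals between epidermis and dermis.

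The deposited values are log2 signals of the MAS5 algorithm, which spreads dim probe sets widely. A probe set was tested if its mean over the 18 arrays exceeded 3.15 on the log2 scale, the 30th percentile of these means. Of the 92 probe sets, 65 passed, for 41 symbols, and the remaining 27 had means between -0.63 and 3.14 and single values between -3.43 and 6.70. No probe set of Wnt1, Wnt2, Wnt7a, Wnt8a, Wnt9b, Wnt10b, Dkk1 or Dkk4 passed. Among these was Wnt10b, a ligand of the hair follicle, with log2 values of 5.22, 4.28 and 4.49 in wild-type epidermis and 0.74, 0.65 and 2.93 in wild-type dermis. It ran from 2.03 to 3.94 in transgenic epidermis, from 0.65 to 4.39 in transgenic dermis, and from 0.94 to 3.16 and 0.47 to 1.96 in wild-type and transgenic whole skin. Where a gene had several probe sets, the one brightest on average stands for it, and differences are of mean log2 signal with the standard error (SE) of limma, a linear model with a moderated error, n = 3 arrays per group. A probe set was called at a Benjamini-Hochberg adjusted p under 0.05 over all 31526 probe sets tested.

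The labelled layers were checked against markers. In wild-type skin all 14 fibroblast and matrix genes tested were higher in dermis and 9 of 10 genes of differentiated keratinocytes were lower. Only 1 of 8 basal keratinocyte genes, Krt14, was lower in dermis, by -1.14, and the summed linear signal of those 8 lay between 13820 and 16350 in wild-type dermis and between 17460 and 23100 in wild-type epidermis. Signal of basal keratinocyte genes was therefore present in the dermis samples. Of 9 follicle stem cell genes, 5 were higher and 0 lower in wild-type dermis, and 7 higher and 0 lower in transgenic dermis. The summed linear signal of those 9 was 5384 to 7664 in wild-type dermis and 3641 to 4185 in wild-type epidermis. In transgenic dermis it was 4487 to 5278, and in transgenic epidermis 1003 to 1204. The part of follicle cells in the layer differences below was not tested. Between transgenic layers 6 of 14 fibroblast and matrix genes were higher in dermis and 0 lower. Their median difference was 1.16 there and 2.58 in wild-type skin. In transgenic dermis 9 of 10 genes of differentiated keratinocytes were lower, and of 8 basal keratinocyte genes 1 was higher and 2 were lower. The median standard deviation within a group ran from 0.357 to 0.593 in the separated layers and was 0.202 and 0.203 in whole skin, so whole skin resolved smaller differences. The wild-type epidermis array of replicate 2 stood apart: without it the genotype comparison in epidermis called 2396 probe sets in place of 470. The transgenic dermis array of replicate 1 did so too: without it 36 in place of 7 were called by genotype in dermis and 6851 in place of 4083 between transgenic layers, and 0 and 26 of the members were called, in place of 0 and 21. In tissue RNA, fewer cells of a type and less RNA per cell cannot be told apart.

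**Figure D1:**
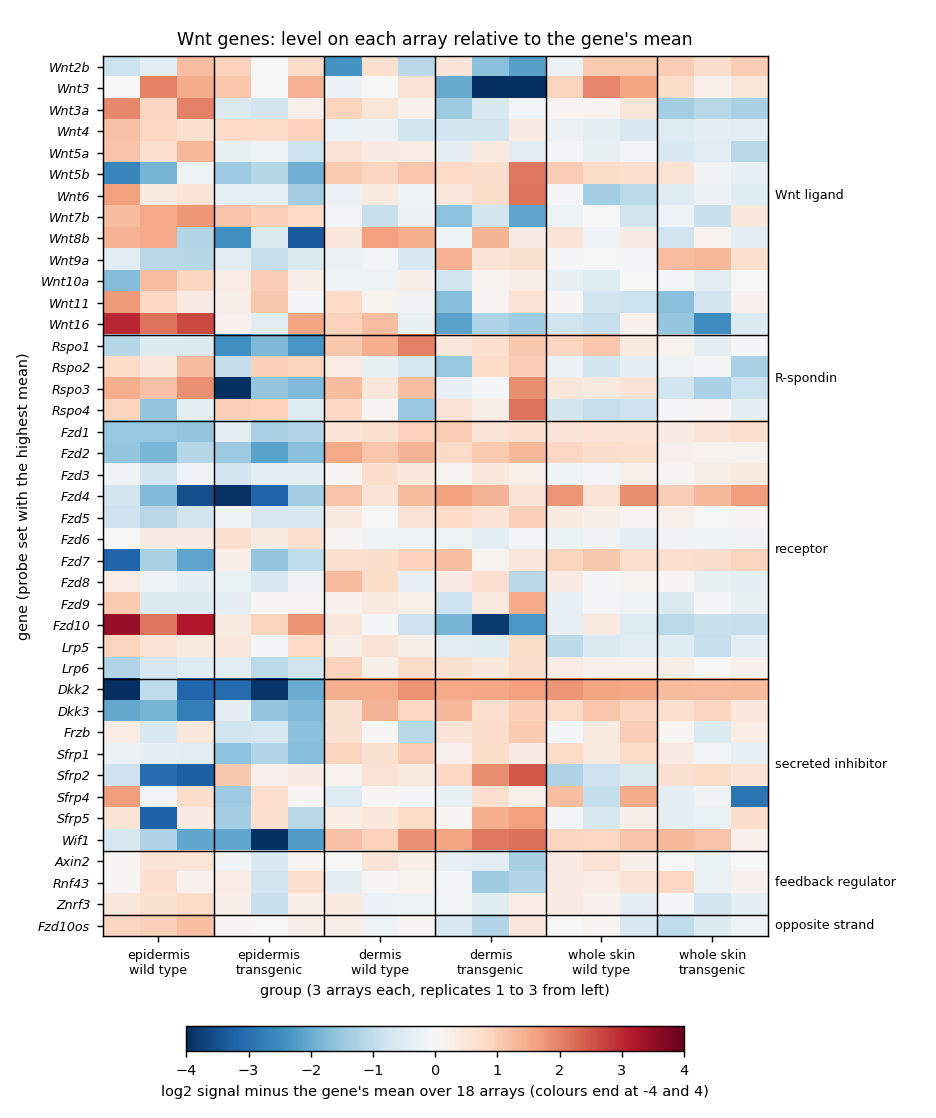
Each row is the highest probe set of a tested gene, grouped by role, and each column an array, coloured by the log2 signal relative to that row's mean. The dermis and whole-skin arrays stand above the epidermis arrays for Fzd1, Fzd2, Fzd4, Dkk2 and Dkk3. For Fzd10 the dermis and whole-skin arrays read at most 5.47, and the epidermis arrays at least 5.37.

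Between the layers, the called secreted inhibitors and most called receptors were higher in the dermis, and 3 of the 4 ligands called in wild-type skin were higher in the epidermis. Of the 65 probe sets tested, 19 were higher and 6 were lower in wild-type dermis than in wild-type epidermis, against 9.22% higher and 9.46% lower among all probe sets tested. These were 38.5% of the probe sets against 18.7% of all, and belonged to 20 genes. The median difference over the 65 was 0.14, and over all probe sets tested -0.16. Of 23 receptor probe sets 10 were higher and 2 lower, of 13 inhibitor probe sets 7 were higher and 0 lower, and of 19 ligand probe sets 1 was higher and 3 were lower. In transgenic skin 16 were higher and 5 lower in dermis, against 6.85% and 6.1% of all. The genotypes were measured on separate arrays, and 18 probe sets were called in both with the same direction, which is 72% of the wild-type and 85.7% of the transgenic calls. Among all probe sets these shares were 44% and 63.5%.

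Among ligands, Wnt5b, which signals mainly outside the beta-catenin branch, was the 1 called higher in wild-type dermis. Its log2 values were 3.24, 3.98 and 5.68 in wild-type epidermis and 6.89, 6.72 and 6.95 in wild-type dermis, with no overlap. The difference was 2.55 ± 0.54 (SE, adjusted p = 0.00935 in limma), and 2.72 ± 0.47 in transgenic skin (adjusted p = 0.00593). The other, dimmer Wnt5b probe set was called in neither genotype. It read 1.38, 3.44 and 4.30 in wild-type epidermis and 4.08, 4.93 and 3.87 in wild-type dermis, with overlap. Wnt4, a ligand expressed in interfollicular epidermis, had values of 7.33, 6.99 and 6.80 in wild-type epidermis and 5.91, 5.94 and 5.37 in dermis, a difference of -1.30 ± 0.32 (adjusted p = 0.0170). Wnt16 and Wnt7b were also lower in wild-type dermis, by -1.98 ± 0.50 (adjusted p = 0.0194) and -1.91 ± 0.53 (adjusted p = 0.0292). In transgenic skin Wnt4 differed by -1.22 (adjusted p = 0.0622) and Wnt16 did not pass either. There Wnt7b was lower in dermis by -2.47 ± 0.70 (adjusted p = 0.0453), Wnt3, a ligand of follicle keratinocytes, by -4.91 ± 1.05 (adjusted p = 0.0153), and Wnt9a was higher by 1.5 ± 0.37 (adjusted p = 0.0274). Wnt3 rested on dim values in transgenic dermis, where its 3 arrays read 2.72, 0.77 and -1.45. Wnt5a did not pass, at -0.64 ± 0.27 in wild-type and 0.31 ± 0.35 in transgenic skin, nor did Wnt3a in wild-type skin (-1.09) or Wnt6 in transgenic skin (1.80).

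Of the R-spondins, Rspo1 was higher in dermis in both genotypes. Its values were 4.97, 5.57 and 5.53 in wild-type epidermis and 7.2, 7.56 and 8.14 in wild-type dermis, a difference of 2.28 ± 0.34 (adjusted p = 0.00169). In transgenic skin the difference was 2.94 ± 0.40 (adjusted p = 0.00214). The wild-type layers of Rspo3 overlapped, with 5.99, 5.73 and 6.39 in epidermis and 5.82, 5.01 and 5.78 in dermis. In transgenic skin they lay apart, but the difference of 2.93 ± 0.89 did not pass (adjusted p = 0.0574). Rspo2 and Rspo4 were called in neither genotype.

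Frizzled receptors fell on both sides. Fzd2 was the member with the smallest p in wild-type skin: 6.88, 6.59 and 7.31 in epidermis against 9.94, 9.54 and 9.79 in dermis, a difference of 2.83 ± 0.27 (adjusted p = 0.000246). Fzd7 read 5.58, 7.49 and 6.69 in epidermis and 9.43, 9.48 and 9.71 in dermis, a difference of 2.96 ± 0.41 (adjusted p = 0.00106). In transgenic skin Fzd7 was not called, with overlapping arrays and means of 8.01 in epidermis and 9.39 in dermis. Fzd1 differed by 2.25 ± 0.24, Fzd4 by 2.97 ± 0.59, Fzd5 by 1.19 ± 0.27 and the co-receptor Lrp6 by 1.42 ± 0.28, all higher in wild-type dermis. Fzd10 went the other way, with 8.48, 7.15 and 8.2 in wild-type epidermis and 5.47, 4.94 and 4.17 in dermis. Its difference was -3.08 ± 0.43 (adjusted p = 0.00120) in wild-type and -3.67 ± 0.67 (adjusted p = 0.00791) in transgenic skin. The larger Fzd10 value rests on transgenic dermis values of 3.16, 1.19 and 2.70. The co-receptor Lrp5 did not pass in either genotype (-0.25 and -0.46).

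The secreted inhibitors called were higher in dermis without exception in both genotypes. Dkk2, an antagonist that binds Lrp co-receptors, had the largest difference in wild-type skin, with 2.14, 6.08 and 3.91 in epidermis and 8.54, 8.54 and 8.89 in dermis. The difference was 4.61 ± 0.74 (adjusted p = 0.00231), and 4.54 ± 0.46 (adjusted p = 0.000797) in transgenic skin. Dkk3, a divergent family member, differed by 3.13 ± 0.33 and 2.20 ± 0.39, and the Wnt-binding Wif1 by 2.62 ± 0.55 and 5.75 ± 1.20, in wild-type and transgenic skin in turn. The larger Wif1 value rests on transgenic epidermis values of 2.15, -2.71 and 1.96. Sfrp1 was higher in dermis by 1.20 ± 0.27 (adjusted p = 0.0124) and 1.92 ± 0.34 (adjusted p = 0.00669). Sfrp2 was higher in wild-type dermis by 2.74 ± 0.71 (adjusted p = 0.0218) and did not pass in transgenic skin, where the difference was 1.20 ± 0.47. Frzb did not pass in either (-0.20 and 1.80), and it was at 0.164 in wild-type skin after quantile normalization.

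Leaving out 1 array at a time, the wild-type count ran from 15 to 29 and the transgenic count from 13 to 26. Among all probe sets the calls ran from 2461 to 8818 and from 1751 to 6851 over the same fits. Without the wild-type dermis array of replicate 3, which gave the count of 15, Wnt4, Wnt7b, Wnt16, Wif1, Fzd5, Sfrp2, both called Sfrp1 probe sets, 1 of the Fzd4 probe sets and the called Axin2 probe set did not pass. Of these, Axin2, Fzd4, Sfrp1, Sfrp2, Wnt16 and Wnt7b also lost the call without another of dermis replicates 1 and 2 or epidermis replicates 1 and 3. In transgenic skin the count was 13 without epidermis replicate 3 and 14 without epidermis replicate 2, and 11 of the 21 calls passed in every such fit. Those that did not were Wnt3, Wnt7b, Wnt9a, Wif1, Fzd5, Fzd10, Lrp6, the called Axin2 probe set and 1 probe set each of Fzd4 and Sfrp1. The 10 probe sets that passed in every such fit in both genotypes belonged to 9 genes: Dkk2, Dkk3, Fzd1, Fzd2, Fzd3, Fzd4, Fzd6, Rspo1 and Wnt5b.

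**Figure D2:**
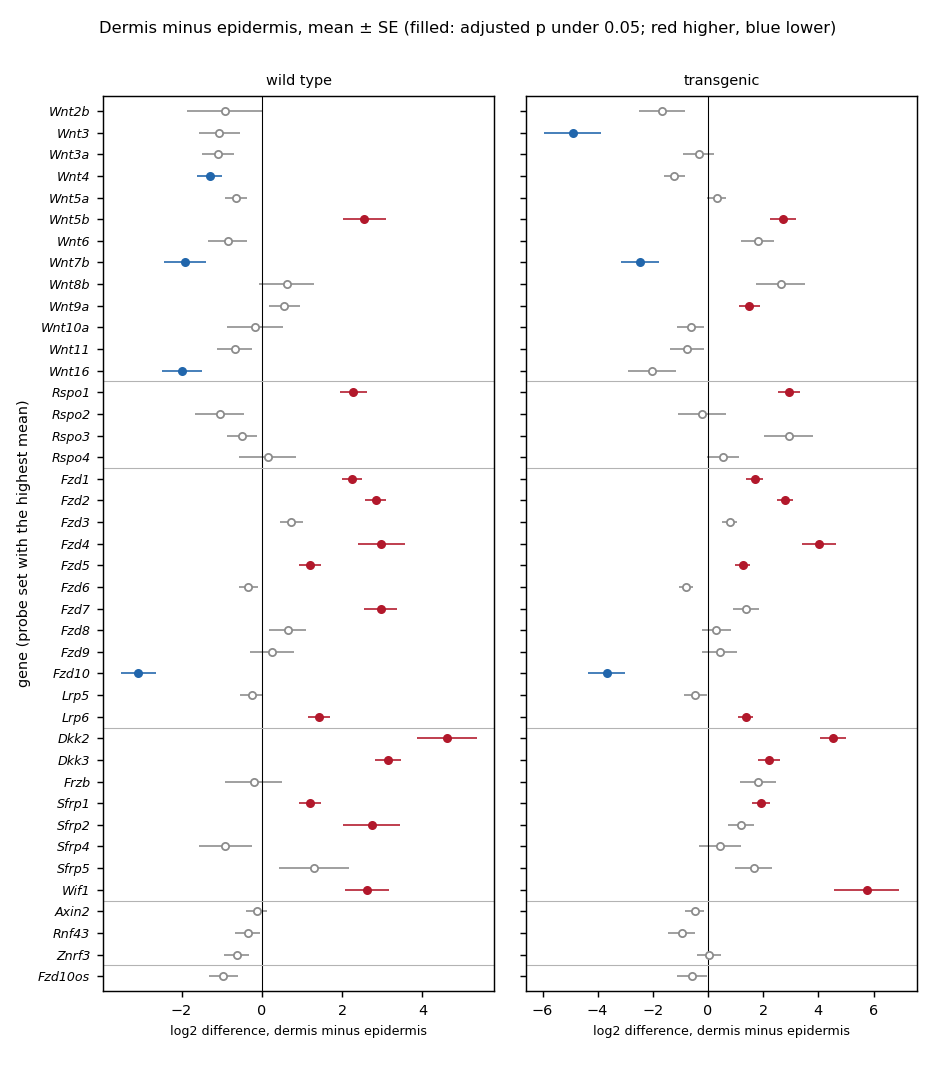
Points give the difference of mean log2 signal, dermis minus epidermis, for the highest probe set of each tested gene in wild-type (left) and transgenic skin (right), bars give the SE, and filled points passed. Dkk2 lies at 4.61 and 4.54 and Fzd10 at -3.08 and -3.67 in the 2 panels.

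The genotype comparisons asked which of these genes differed between transgenic and wild-type skin of the same tissue. In epidermis 0 probe sets rose and 2 fell, of 65, against 0.923% and 0.568% of all probe sets. Limma gave an unadjusted p under 0.05 for 3 higher and 14 lower, against 7% and 10.9% of all. The 3 transgenic arrays all lay above the wild-type arrays for 6 probe sets and all below for 18, against 8.27% and 14.7% of all. A negative difference was found for 46 of 65 (70.8%), against 61.2% of all, with a median of -0.53 against -0.20. The shift of all probe sets depends on scaling: quantile normalization moved their median from -0.20 to 0.0006.

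Rspo3, an agonist that amplifies Wnt signals, fell in transgenic epidermis. It read 5.99, 5.73 and 6.39 in the wild type and 0.52, 3.0 and 2.80 in the transgenic, with no overlap. The difference was -3.93 ± 0.70 (adjusted p = 0.0216). All 3 transgenic values lay under 3.15, the level of the filter, so no fold is given. The other Rspo3 probe set was under the filter and not tested. Its epidermis means were 1.51 in the wild type and 1.57 in the transgenic. Wnt5a, the main ligand outside the beta-catenin branch, read 8.44, 7.97 and 8.62 in the wild type and 6.99, 7.13 and 6.44 in the transgenic, again with no overlap. It fell by 1.49 ± 0.30 (adjusted p = 0.0329), a 2.81-fold lower signal. Its other 3 probe sets differed by -1.55, -1.81 and -1.01 and did not pass, though all of their transgenic arrays lay below the wild-type arrays. Rspo3 lost the call without wild-type replicate 1 or 3 (differences of -4.38 to -3.14 over the 6 fits, adjusted p up to 0.137). Wnt5a kept it only without wild-type replicate 2 (-1.68 to -1.28, adjusted p up to 0.187), and lost it under quantile normalization (adjusted p = 0.0547). Of the members, 0 passed without wild-type replicate 3, 1 without wild-type replicate 1 or transgenic replicate 1 or 2, and 7 without wild-type replicate 2, among them Fzd10, Wnt3a and Wnt16.

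Several other members lay apart by genotype in epidermis without passing. Sfrp2, which binds Wnt ligands and is expressed by dermal fibroblasts, read 4.06, 1.85 and 1.61 in the wild type and 5.96, 5.06 and 5.21 in the transgenic, a difference of 2.90 ± 0.71 (adjusted p = 0.0760). Fzd10 differed by -1.92 ± 0.43 (adjusted p = 0.0554), Wnt3a by -1.97 ± 0.45 (adjusted p = 0.0593) and Wnt16 by -2.17 ± 0.56 (adjusted p = 0.0900). Adding 16 on the linear scale before log2, which damps dim values, brought Fzd10, Wnt3a and Sfrp2 past the threshold (adjusted p = 0.0388, 0.0485 and 0.0455). Their differences were then smaller, at -1.68, -1.41 and 1.36. Sfrp1 differed by -1.14 ± 0.34 (adjusted p = 0.132), and each of its 5 probe sets was lower. Axin2, the usual readout of beta-catenin activity, read 8.18, 8.63 and 8.56 in the wild type and 7.94, 7.47 and 8.19 in the transgenic. Its groups overlapped and the difference was -0.59 ± 0.27 (adjusted p = 0.286). Lrp5 and Lrp6 differed by -0.21 and 0.005, Dkk3 by 0.96 and Frzb by -1.09, none of which passed, and Lrp6 was at -0.0874 after quantile normalization.

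Markers of other cells moved in the same comparison. The summed linear signal of 9 follicle stem cell genes was 3641 to 4185 in wild-type and 1003 to 1204 in transgenic epidermis, with 3 of 9 lower and 1 higher. For 14 fibroblast and matrix genes it was 4565 to 10400 and 11210 to 17520, with 4 of 14 higher and 0 lower. For 8 basal keratinocyte genes it was 17460 to 23100 and 12120 to 12550, with 2 of 8 lower and 0 higher, and for 9 macrophage genes 1467 to 2676 and 3142 to 4365, with 1 of 9 higher. Their part in the differences of Rspo3, Wnt5a and Sfrp2 was not tested.

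**Figure D3:**
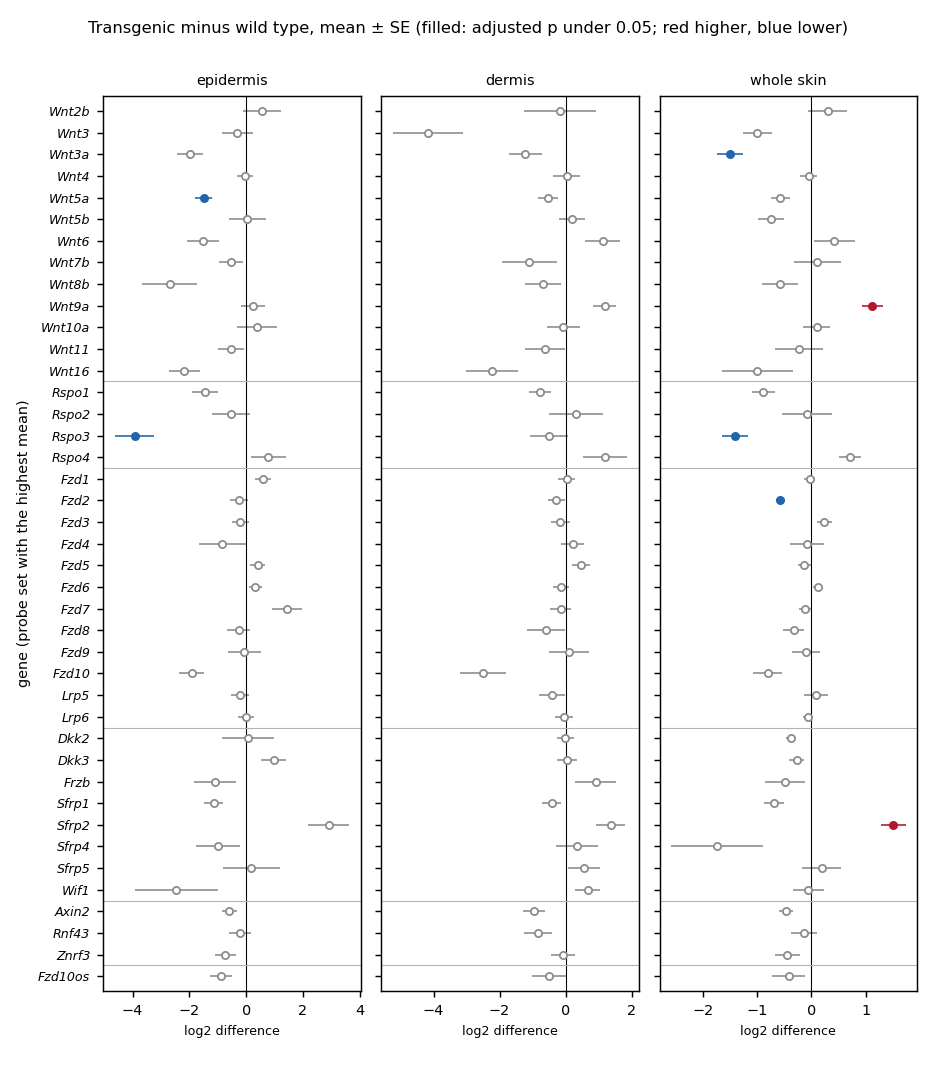
Points give how far the transgenic mean log2 signal lay above or below the wild-type mean, for the brightest probe set of each tested gene, with a panel per tissue, bars give the SE, and filled points passed. Rspo3 and Wnt5a are filled in epidermis, Sfrp2, Wnt9a, Fzd2, Wnt3a and Rspo3 in whole skin, and no gene in dermis.

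In whole skin, where the layers were not separated, 2 probe sets rose and 3 fell, against 0.91% and 0.653% of all. At an unadjusted p under 0.05 there were 6 higher and 20 lower, against 7.08% and 8.46% of all. The arrays lay apart upward for 7 and downward for 19, against 9.66% and 12.1% of all, and the median difference was -0.14 against -0.02. Of 13 inhibitor probe sets 1, that of Sfrp2, was called higher and 0 were called lower.

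Among ligands, Wnt9a rose and Wnt3a fell. Wnt9a read 5.86, 5.96 and 5.86 in wild-type and 7.18, 7.28 and 6.58 in transgenic whole skin, a difference of 1.12 ± 0.19 (adjusted p = 0.0238). Wnt3a, a ligand that activates beta-catenin, read 4.87, 4.87 and 5.22 in the wild type and 3.38, 3.63 and 3.46 in the transgenic, a difference of -1.5 ± 0.23 (adjusted p = 0.0171). Neither pair of groups overlapped. In separated epidermis Wnt9a read 5.54, 4.84 and 4.80 in the wild type and 5.52, 5.02 and 5.36 in the transgenic. These groups overlapped, and it was not called there. The other Wnt9a probe set was under the filter and not tested. In whole skin it read 1.94, 2.84 and 1.87 in the wild type and 2.73, 3.01 and 1.85 in the transgenic, with overlap. In the RefSeq annotation of GRCm38.p6 Wnt9a and Wnt3a are direct neighbours. They are also 1 of the 2 neighbouring pairs among the members with both genes tested, the other being Wnt6 and Wnt10a, of which neither was called in whole skin. Rspo3 fell here too, from 5.0, 4.94 and 5.07 to 3.83, 3.27 and 3.70, by 1.40 ± 0.24 (adjusted p = 0.0246).

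Because these neighbours moved in opposite directions, and Sfrp2 had the smallest p among the members in whole skin, the 250 bases before the RefSeq start of each are shown, from GRCm38.p6, 5′ to 3′ on the gene's strand. They lie at chr11:59306680-59306929 (plus strand) for Wnt9a, chr11:59290752-59291001 (minus strand) for Wnt3a and chr3:83766071-83766320 (plus strand) for Sfrp2. Capitals mark the core motif of RBPJ, the DNA-binding partner of the Notch intracellular domain, searched as GTGGGAA or its reverse TTCCCAC.
Wnt9a: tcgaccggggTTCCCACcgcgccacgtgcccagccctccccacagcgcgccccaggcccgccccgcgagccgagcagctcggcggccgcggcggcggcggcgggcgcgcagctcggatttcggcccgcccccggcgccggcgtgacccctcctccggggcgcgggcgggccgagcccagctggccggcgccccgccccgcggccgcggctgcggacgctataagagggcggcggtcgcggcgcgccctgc
Wnt3a: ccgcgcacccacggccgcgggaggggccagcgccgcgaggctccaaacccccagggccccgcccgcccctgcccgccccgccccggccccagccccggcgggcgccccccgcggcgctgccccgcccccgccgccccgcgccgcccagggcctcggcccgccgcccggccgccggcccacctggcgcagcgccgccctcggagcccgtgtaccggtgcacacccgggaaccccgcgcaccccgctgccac
Sfrp2: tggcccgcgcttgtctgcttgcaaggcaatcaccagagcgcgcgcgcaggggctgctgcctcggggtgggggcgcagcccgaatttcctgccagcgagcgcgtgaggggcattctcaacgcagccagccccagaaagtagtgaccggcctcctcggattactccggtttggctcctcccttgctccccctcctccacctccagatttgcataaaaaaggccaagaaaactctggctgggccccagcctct
The Wnt9a stretch holds 1 match, 240 to 234 bases before the start, and the other two hold none. The motif was found in 5.42% of 32851 windows of this length, and in 2 of the 35 windows of 31 member genes, those of Wnt9a and Frzb. The TCF/LEF motif, searched as CTTTGAT or ATCAAAG, was in 3.21% of all windows and in 2 member windows, of Wnt5b and Wnt11. The windows of Wnt9a and Wnt3a were 84.4% and 87.6% G and C, and that of Sfrp2 63.6%. A match is a string of letters and not a binding site, and its absence says only that these letters are not in the window.

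Fzd2 was the receptor that fell in whole skin. Its values were 9.26, 9.15 and 9.07 in the wild type and 8.6, 8.58 and 8.58 in the transgenic, a difference of -0.57 ± 0.09 (adjusted p = 0.0171), and a small one beside the difference of 2.83 between wild-type layers. In separated dermis and epidermis Fzd2 differed by -0.28 and -0.24, with overlapping groups. Sfrp2 was the inhibitor that rose, from 3.65, 4.06 and 4.31 to 5.48, 5.62 and 5.44, by 1.51 ± 0.23 (adjusted p = 0.0146). Sfrp1 went the other way, with a difference of -0.69 ± 0.19 (adjusted p = 0.113) and all 5 probe sets below 0. Axin2 read 8.42, 8.66 and 8.34 in the wild type and 8.10, 7.81 and 8.10 in the transgenic. These groups did not overlap, but the difference of -0.47 ± 0.13 did not pass (adjusted p = 0.116). Wnt5a at -0.58, Rspo1 at -0.89, Dkk2 at -0.38, Dkk3 at -0.28, Frzb at -0.50, Lrp5 at 0.08 and Lrp6 at -0.07 did not pass either.

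None of the 5 calls of whole skin held in every fit without 1 array. The calls among all probe sets ran from 138 to 509 over those fits, in place of 493. None of the 5 passed without transgenic replicate 1 or 2 or without wild-type replicate 1, while all 5 passed without transgenic replicate 3. Without wild-type replicate 3 Wnt3a, Wnt9a and Rspo3 were lost, without wild-type replicate 2 Wnt9a and Rspo3, and the highest adjusted p was 0.112. Every such difference kept its sign, from 0.99 to 1.34 for Wnt9a and from -1.57 to -1.38 for Wnt3a. None of the 5 passed in a fit over all 18 arrays (adjusted p from 0.354 to 1), which gives whole skin the larger spread of the separated layers. Markers of growing hair follicles had a summed linear signal of 185 to 359.4 in wild-type and 269.9 to 1749 in transgenic whole skin, with 1 of 10 tested genes higher. Genes of differentiated keratinocytes were at 14340 to 16930 and 17310 to 21260, with 3 of 10 higher, and follicle stem cell genes at 4610 to 5686 and 4095 to 4687, with 2 of 9 lower. The part of these lists was not tested.

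In dermis no member passed. Limma called 0 of 65, against 0.0222% higher and 0% lower among all probe sets. At an unadjusted p under 0.05 there were 2 higher and 7 lower, against 1.41% and 2.51% of all. Only the fit over all 18 arrays called a member, Wnt3 (adjusted p = 0.0349), while the 7 other settings and every fit without 1 array called 0. Wnt3 read 4.51, 4.71 and 5.31 in wild-type and 2.72, 0.77 and -1.45 in transgenic dermis, a difference of -4.17 ± 1.07 (adjusted p = 0.853) with no overlap. Wnt9a read 5.73, 5.84 and 5.29 against 7.34, 6.5 and 6.56, a difference of 1.18 ± 0.36 (adjusted p = 0.990). Axin2 differed by -0.95 ± 0.34 (its dimmer probe set by -2.74) and Fzd10 by -2.51 ± 0.71, both with no overlap. Wnt16 at -2.24 and Sfrp2 at 1.37 did not overlap either. Transgenic dermis values were dim for Fzd10 (3.16, 1.19 and 2.70) and Wnt16 (1.16, 2.05 and 1.82). Wnt5a at -0.54, Sfrp1 at -0.42, Frzb at 0.91, Lrp5 at -0.42, Lrp6 at -0.06 and Dkk3 at 0.03 overlapped, and Lrp6 was at 0.0068 with the arrays set to a common 75th percentile. Arrays lay apart upward for 3 probe sets and downward for 9, against 3.09% and 6.04% of all. The growing follicle markers were at 178.2 to 225.4 in wild-type and 2324 to 3894 in transgenic dermis, with 4 of 10 tested genes higher, and their part was not tested.

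Across the 3 tissues, which were hybridised to separate arrays, 4 member probe sets separated the genotypes without overlap, and in the same direction, in each tissue. This grouping was chosen after the values were seen. Sfrp2 was higher each time, with differences of 2.90 (epidermis), 1.37 (dermis) and 1.51 (whole skin). In that order, Wnt3a was lower by -1.97, -1.22 and -1.5, Fzd10 by -1.92, -2.51 and -0.81, and Rspo1 by -1.44, -0.78 and -0.89. The Fzd10 difference in dermis rests on the dim transgenic values given above. The other, dimmer Fzd10 probe set was higher in transgenic whole skin, also without overlap, with 0.68, 0.91 and 1.36 in the wild type and 2.58, 3.89 and 2.78 in the transgenic. Its difference there was 2.10 ± 0.62 and did not pass (adjusted p = 0.145), and its groups overlapped in epidermis (-0.88) and dermis (-0.10). Of all probe sets, 0.463% were higher and 0.774% lower in this way. None of these 4 member probe sets passed in epidermis or dermis. In whole skin Sfrp2 and Wnt3a passed, and Fzd10 and Rspo1 did not.

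**Figure D4:**
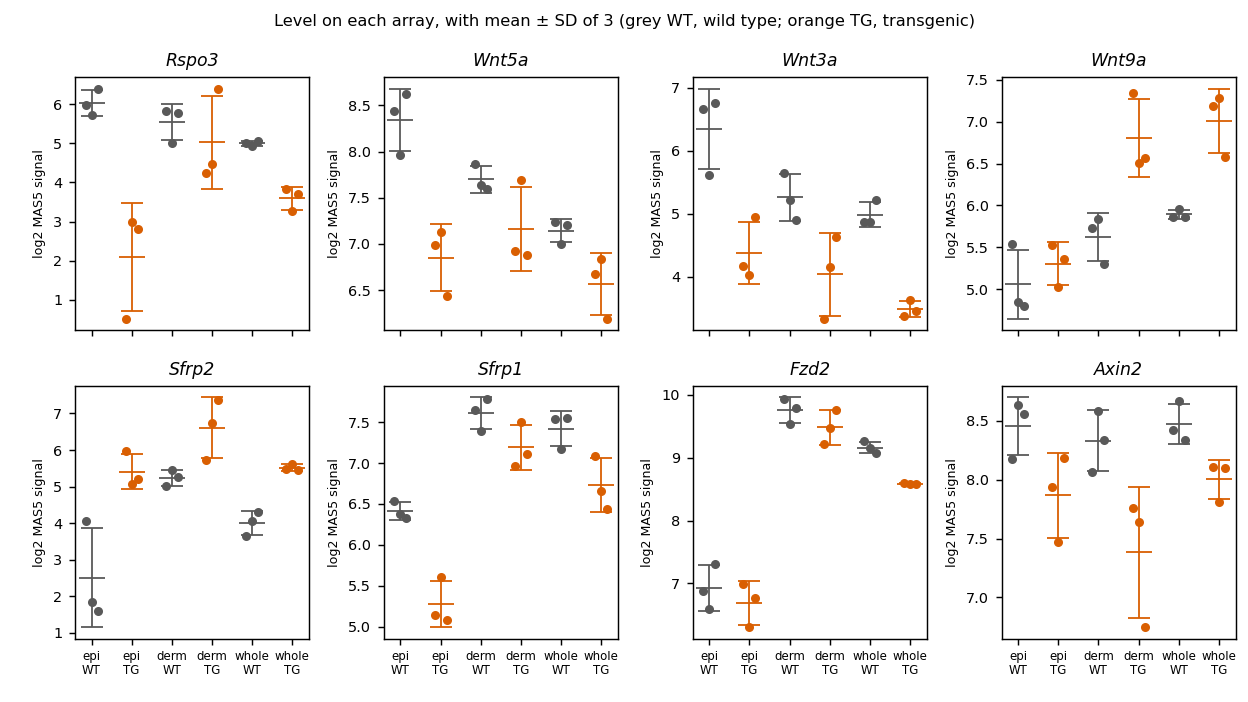
Each point is the log2 signal of 1 array, in wild-type (left of each pair) and transgenic samples of epidermis, dermis and whole skin, and short lines are group means. For Sfrp2 the transgenic points lie above the wild-type points in all 3 tissues, and for Wnt3a below them.

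Whether the genotype difference itself differed between dermis and epidermis was tested as an interaction on the 12 arrays of the layers. No member passed in limma, 0% of all probe sets did, and none of the other settings called a member either. At an unadjusted p under 0.05 there were 6 higher and 4 lower, against 3.48% and 3.92% of all probe sets. The smallest p belonged to Rspo3, whose difference was -3.93 in epidermis and -0.51 in dermis (interaction 3.42 ± 0.97, adjusted p = 0.523). For Wnt6 it was 2.65 ± 0.78 (adjusted p = 0.558) and for Wnt3 -3.85 ± 1.21 (adjusted p = 0.590). For Fzd7 it ran from -2.03 to -1.06 over the fits without 1 array. The others named in every comparison were Axin2 at -0.36, Lrp5 at -0.21, Lrp6 at -0.06, Wnt5a at 0.95, Sfrp1 at 0.72, Sfrp2 at -1.54, Dkk3 at -0.93 and Frzb at 2.0.

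Probe sets of 1 gene differed in several cases. Of the tested genes, 15 had more than 1 tested probe set, 39 in all. For Axin2, the brighter probe set differed between wild-type layers by -0.12 and the dimmer one by -1.48 ± 0.38 (adjusted p = 0.0221). In transgenic skin the dimmer one differed by -3.59 ± 0.80 (adjusted p = 0.0182). For Fzd6, the dimmer of the pair was lower in wild-type dermis by -1.93, and the brighter was at -0.34 and did not pass. For Fzd7, the brighter was higher in wild-type dermis by 2.96, whereas the dimmer was at -1.21 and did not pass. For Fzd3, 3 of 6 probe sets were called higher in wild-type dermis, and the brightest differed by 0.73 (adjusted p = 0.102). For Lrp6, the brighter was higher by 1.42 and the dimmer was at -0.77. No probe positions were used here, so the transcripts behind such pairs were not compared.

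**Figure D5:**
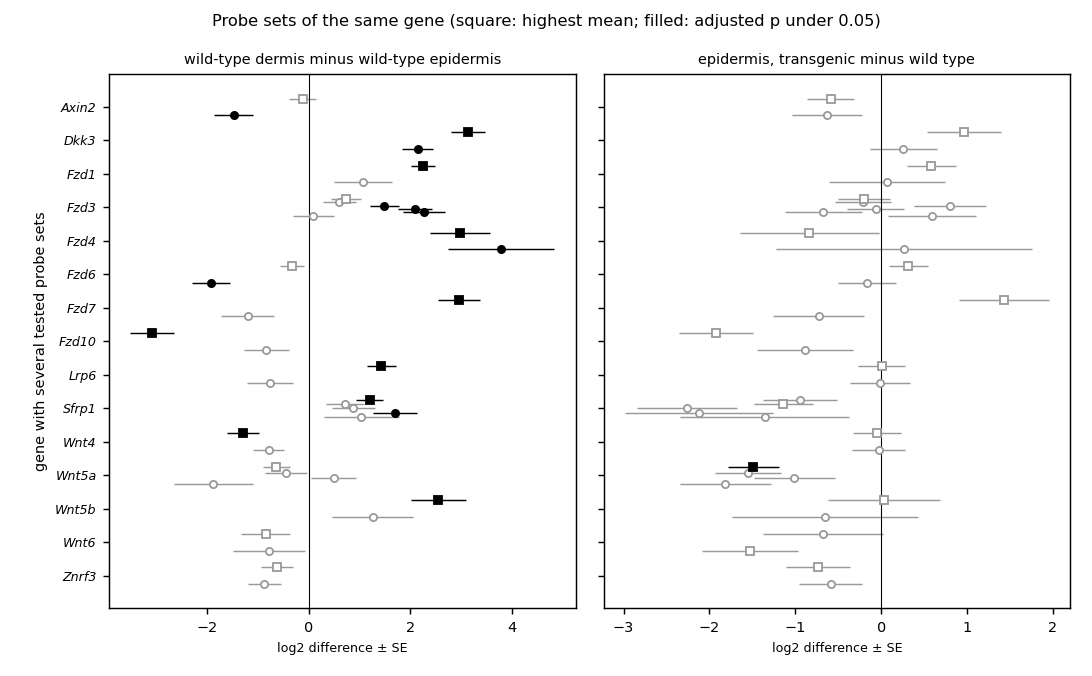
Each point is a log2 difference of 1 probe set, for the 15 genes with more than 1 tested probe set, with the SE as a bar. The left panel gives wild-type dermis minus wild-type epidermis, and the right panel transgenic minus wild-type epidermis. In the left panel, points of Fzd7 lie at 2.96 and -1.21 and those of Axin2 at -0.12 and -1.48.

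Other genes of the pathway were counted from lists of known components, with the brightest probe set of each gene. The lists share genes, such as Lef1 and Lgr5, so their counts are not separate. Of all probe sets, 0.923% were called higher and 0.568% lower in transgenic epidermis, and 0.91% and 0.653% in transgenic whole skin. Between wild-type layers 9.22% were higher and 9.46% lower in dermis. Of 11 tested further receptors, 0 rose and 1 fell in transgenic epidermis. This was Lgr6, an R-spondin receptor of follicle stem cells. It read 7.59 on average in the wild type and 3.91 in the transgenic, and fell by 3.68 ± 0.49 (adjusted p = 0.00523 in limma). Lgr6 and Lgr5 were also among the 9 follicle stem cell genes counted above. The summed signal of those genes was 3641 to 4185 in wild-type and 1003 to 1204 in transgenic epidermis. The part of such cells was not tested. In whole skin Lgr6 and Gpc3 fell, by 0.71 ± 0.12 and 0.86 ± 0.16. Between wild-type layers 4 of 11 were higher in dermis, among them Lgr5, another R-spondin receptor, by 4.24 ± 0.91, and Ror2, a receptor for Wnt5a, by 2.95 ± 0.49, while Ryk was lower by -1.43 ± 0.36. Of 8 further secreted inhibitors and modulators, Cthrc1 and Sostdc1 rose in transgenic epidermis, by 5.92 ± 0.56 and 2.15 ± 0.45, and 0 fell. Sostdc1 binds Lrp co-receptors, and Cthrc1 is a matrix protein that favours Wnt signals through Ror2, opposite to the name of the list. In whole skin Cthrc1 rose by 2.25 ± 0.35 and Shisa2, which retains Frizzled inside the cell, fell by 0.77 ± 0.13.

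Genes acting inside the cell were counted in the same way. At an unadjusted p under 0.05 in limma, 7% of all probe sets were higher and 10.9% lower in epidermis. In dermis these shares were 1.41% and 2.51%. Of 24 tested genes of the beta-catenin machinery 0 were called in epidermis (0 higher and 4 lower at an unadjusted p under 0.05) and 0 in dermis (0 and 0), and 1 of 24, Dvl1, rose in whole skin, by 0.36 ± 0.07. Of 12 tested target genes, 0 were called in epidermis (1 higher and 2 lower unadjusted) and 0 in dermis (0 and 0), and Myc rose in whole skin by 0.62 ± 0.12. Of 13 planar polarity genes, Prickle2 rose in epidermis by 1.29 ± 0.27. In whole skin Prickle1 of that list fell, by 0.77 ± 0.14, and 0 of 13 were called in dermis. None of 4 tested genes of Wnt secretion was called in a genotype comparison.

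Between layers, 1 of 24 machinery genes was higher and 3 lower in wild-type dermis, and 2 were higher and 4 lower in transgenic dermis. Of all probe sets, 9.22% were higher and 9.46% lower in wild-type dermis, and 6.85% and 6.1% in transgenic dermis. Of the 12 target genes 2 were higher in wild-type and 5 in transgenic dermis and 0 were lower in either, and of the planar polarity genes 2 were higher and 2 lower in wild-type and 1 and 1 in transgenic dermis. In wild-type skin Ctnnbip1, an inhibitor of beta-catenin, was lower in dermis by -2.94 ± 0.29, and Twist1, a factor of mesenchyme, was higher by 2.72 ± 0.32. Lef1, a nuclear partner of beta-catenin, was higher in transgenic dermis than in transgenic epidermis by 2.16 ± 0.49.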

How the data were processed

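The authors deposited 1 table of log2 signals for 45037 probe sets on 18 arrays, made with MAS5 per the submitters' processing notes (its settings: not given in the sources used here). A log2 scale was read from the values, which ran from -7.52 to 14.42 with a linear trimmed mean of 98.9 to 99.5 on every array. No 2 arrays were identical, and no further normalization was applied. Symbols came from the platform annotation, and all 49 matched a RefSeq table (GRCm38.p6).

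Each comparison was fitted on its own groups with limma 3.58.1 in R 4.3.3 (lmFit, eBayes with a trend), tested on simulated data, with Benjamini-Hochberg adjustment over 31526 probe sets. Exact permutation of 3 against 3 arrays cannot go below p = 0.1 and was not used. Named were the members called anywhere, up to 6 further members with the smallest p in each comparison, and Axin2, Lrp5, Lrp6, Wnt5a, Wnt10b, Sfrp1, Sfrp2, Dkk3 and Frzb in each comparison (Wnt10b, under the filter, by its values alone), with up to 4 genes of each pathway list. The members, lists and tests were chosen with earlier results of these data known. Alternatives changed the arrays in the fit, the probe sets, the filter, the scaling, low values, a replicate block and single arrays.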

Additional observations from a re-analysis of the deposited data

Results flagged for a closer look

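Of 65 tested probe sets, examined over 4 pairs of comparisons each, 2 had every transgenic array on one side of the wild-type arrays in 1 tissue and on the other side in another. 1 of the Wnt6 probe sets differed by -1.53 in epidermis and by 1.12 in dermis, transgenic minus wild type. Neither difference passed on its own (adjusted p = 0.198 and 0.990), and their difference, tested as an interaction in limma, did not pass (adjusted p = 0.558). 1 of the Fzd3 probe sets differed by 0.80 in epidermis and by -0.15 in whole skin, and this difference between tissues was not tested.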

How the results depend on the processing

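The members called in wild-type layers (25) and for the interaction (0) stayed within 1.5 times under all 8 other settings. The 2 called in epidermis became 10 in the fit over all 18 arrays and 5 with 16 added on the linear scale. They became 1 each with the mean above the 50th percentile, under quantile normalization and with the replicate block. Of all probe sets, 1.49% were called in epidermis as fitted. In these settings, in turn, the shares were 5.74%, 1.98%, 1.93%, 1.18% and 0.609%. At the 50th percentile the filter removed Rspo3 before testing, and Wnt5a still passed. The fit over all 18 arrays called 1 in dermis in place of 0, 0 in whole skin in place of 5 and 37 between transgenic layers in place of 21. Its shares of all probe sets there were 0.178%, 0.108% and 28.5%, in place of 0.0222%, 1.56% and 13%. With the replicate block 3 passed in whole skin, where Rspo3 and Wnt3a were lost (adjusted p = 0.0581 and 0.0516), and Wnt5a was lost in epidermis (adjusted p = 0.116). Over the fits without 1 array the counts ran from 0 to 7 in epidermis, 0 to 0 in dermis and 0 to 5 in whole skin. They ran from 15 to 29 between wild-type layers, 13 to 26 between transgenic layers and 0 to 0 for the interaction. Among all probe sets the calls in the 3 tissues ran from 88 to 2396, 1 to 36 and 138 to 509. For the layers and the interaction, in the same order, they ran from 2461 to 8818, 1751 to 6851 and 0 to 45. The sign turned for Lrp6 in epidermis (-0.0874 under quantile normalization) and in dermis (0.0068 at a common 75th percentile), and for Frzb between wild-type layers (0.164 under quantile normalization), none of them called. Over the fits without 1 array the sign also turned, with none called in the comparison as fitted, for Lrp5 (-0.41 to 0.0037) and Lrp6 (-0.19 to 0.16) in epidermis, Dkk3 (-0.13 to 0.25) and Lrp6 (-0.26 to 0.0885) in dermis, Lrp5 in whole skin (-0.11 to 0.24), Axin2 (-0.26 to 0.0093) and Frzb (-0.59 to 0.28) between wild-type layers, and Lrp6 for the interaction (-0.26 to 0.14). The cause of these changes was not tested. Same-numbered arrays did not deviate together in most comparisons (correlations from -0.329 to 0.40), so the numbers were not taken as pairs. With 3 arrays a group and a wide spread of dim values, differences in separated layers are the least precise.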
